A study of Mus musculus with 78 samples.

Results

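Single blastomeres of 4-cell mouse embryos were described for the transcripts they held in the largest amounts, for the genes held at the most even level from cell to cell, and for the genes that differed most between cells at a given level. The 4-cell gene table has 24 columns, each 1 blastomere, and a column was kept where at least 5000 genes, of 15218 in the table, were above an FPKM of 1, which left 21 columns. FPKM is the number of sequenced fragments of a gene divided by its transcript length and by the depth of the library, so levels of different genes are already set per length. The columns S18, S20 and S24 were left out with 3009, 3699 and 4939 such genes. S24 lay just outside the limit and S21, with 5336 genes, just inside it. The labels list 36 samples of 4-cell embryos and 78 samples in all, and no column name matches 1 sample, so no column was assigned to an embryo or a lineage. The 21 blastomeres were therefore not used as replicates, every statement below is a description of these cells, and no significance test was run.

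The embryos came from a cross of mice with the Brainbow2.1 cassette at Gt(ROSA)26Sor, the allele tm1(CAG-Brainbow2.1)Cle, with partners called STOCK Tg(CAG-cre/Esr1*)5Amc/J. All of them therefore carried 1 Brainbow cassette, a set of fluorescent protein genes of which Cre recombination turns on a single one, and 1 gene for a Cre that enters the nucleus after tamoxifen. Both transgenes are driven by the CAG promoter, which is active in most cell types. Mothers were superovulated, embryos were collected at the 2-cell stage 46 hours after hormone injection, exposed to 4-hydroxytamoxifen for 2 hours and cultured in KSOM medium until they had 4 cells. The paper's methods give these 46 hours, while its results give an earlier time of collection. Embryos without the transgenes or without tamoxifen were not analysed here, so all values come from treated embryos.

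By the 4-cell stage the embryo's own genome is active and most of the RNA stored in the egg has been degraded, while the blastomeres still look alike. Transcripts of protein synthesis, protein turnover and the cell cycle are abundant at this time, beside genes known from oocytes, germ cells and pluripotent cells such as Dppa3. Female embryos carry a pair of X chromosomes and male embryos an X and a Y, and X-linked genes are transcribed from genome activation onwards.

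Estimated from the smallest steps between low values, an FPKM of 1 on a transcript of 1000 bases stood for 6.87 fragments in S23, the least, for 16.9 in S14, the most, and for 13.6 in the median column. Between 5336 and 8276 genes exceeded an FPKM of 1 (median 7203), and 2719 genes did so in all 21 blastomeres against 1840 in a single one. Spearman's rho between blastomeres, over the 5922 genes with a mean log2(FPKM+1) of at least 2, ran from 0.564 (S8 and S21) to 0.857 (S1 and S3) with a median of 0.694 over 210 pairs. Several columns stood apart before any gene was ranked. The summed FPKM of X-linked genes was 0.0365%, 0.0354%, 0.0396% and 0.0629% of the total in S13, S14, S15 and S16 and 2.84% to 5.41% in the other 17 kept columns. Genes of chromosome 12 were low in S21 and S23 and high in S22. For several rankings, groups and counts from lists, values without S13, S14, S15 and S16 are also given.

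Markers of a cleavage-stage blastomere were present. Dppa3, a maternal factor that protects the methylation of the maternal genome in the zygote, Zp3, a zona pellucida protein, and Padi6, an oocyte lattice protein, exceeded an FPKM of 1 in all 21 blastomeres, with medians of 3663, 87.0 and 24.5. Khdc3, of the subcortical maternal complex, passed 1 in 20 blastomeres with a median of 116, Zbed3 in 19 with 11.6 and Btg4 in 18 with 12.5. The remaining markers Nlrp5, Tle6, Ooep and Zar1 passed 1 in 15, 14, 11 and 2 blastomeres, with medians of 4.38, 3.16, 1.85 and 0. The 10 blastomere markers together summed to 2505 to 5493 FPKM, most of it from Dppa3, which alone ran from 2420 to 4821. Of the 10 markers of cumulus or granulosa cells, the somatic cells around the egg, 5 were in the table. Amhr2 and Nr5a2 exceeded 1 in all 21 blastomeres with medians of 37.4 and 44.7, while Amh and Has2 never did and Cyp19a1 did in 1. Amh, Has2 and Cyp19a1 reached at most 0.13, 0.03 and 2.27 FPKM. The summed level of the 5 genes, 47.0 to 152 FPKM, therefore came almost wholly from Amhr2 and Nr5a2. Whether these 2 transcripts came from the blastomeres or from somatic cells was not tested. Prm1 and Prm2, the sperm protamines, passed 1 in 2 blastomeres each. The keratins Krt8 and Krt18, markers of the later trophectoderm, passed 1 in 9 and 7 blastomeres with highest values of 73.4 and 14.1. Of the other trophectoderm markers, the transcription factor genes Gata3 and Eomes passed 1 in 6 and 3 with highest values of 11.3 and 2.43. Cdx2 and Elf5 were looked up and not found in the table.

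Dppa3 and Rpl41 had the highest median levels. The 10 most abundant transcripts of each blastomere held 3.44% to 5.43% of its summed FPKM, the top 100 held 16.96% to 23.9% and the top 1000 held 61.6% to 72.1%. Ranked by the median over the 21 blastomeres, the 100 highest genes ran from 558 to 3663 FPKM. Of these, 96 exceeded 1 in every blastomere, 98 were protein-coding and 44 fell into at least 1 of the functional lists.

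**Figure D1:**
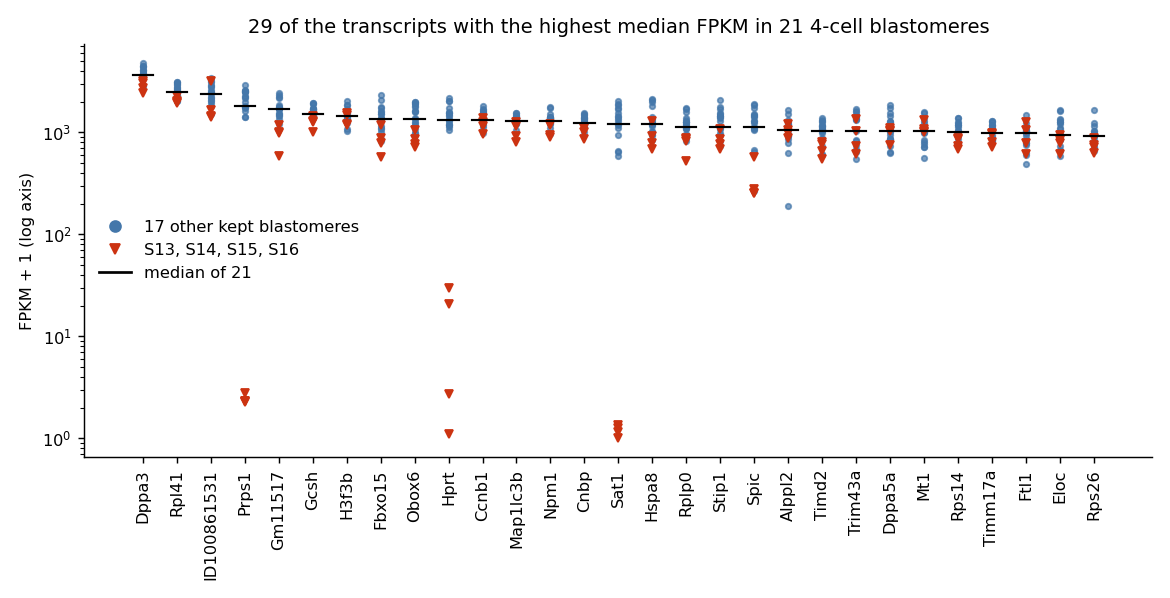
FPKM + 1 on a log axis of 29 of the 30 transcripts with the highest median FPKM, 1 point per kept blastomere (n = 21), with the median as a black bar and S13, S14, S15 and S16 as red triangles. Most genes span less than a factor of 5, while the X-linked genes Prps1, Hprt and Sat1 fall to between 0 and 28.6 FPKM in the 4 red columns.

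Dppa3 stood first, with 2420.0 FPKM in the lowest blastomere, a median of 3663 and 4821 in the highest. Its gene lies on chromosome 6, and its level varied 1.99-fold among the 21 cells. Rpl41, which encodes a very short protein of the large ribosomal subunit, followed with 1954, 2490.3 and 3131. Next came the gene with identifier 100861531, which has no symbol in RefSeq, at 1409.9 to 3425 with a median of 2367. Prps1, which makes phosphoribosyl pyrophosphate for nucleotide synthesis, had a median of 1829.6 and the predicted gene Gm11517 one of 1680.1. Gcsh, the H protein of the glycine cleavage system, ran from 1009 to 1943 around 1528.

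Other leading genes are known from the early embryo. Fbxo15, an F-box protein gene used as a marker of pluripotent cells, ran from 574 to 2351 with a median of 1368. Obox6, a homeobox gene of the oocyte and cleavage embryo, ran from 712 to 1968 with a median of 1353. It was the single gene of the Obox list, of 6 in the table, with a mean log2(FPKM+1) of at least 2. Without S13, S14, S15 and S16, 2 genes of this list reached that mean. Dppa5a, a KH-domain gene of pluripotent cells, had a median of 1039 and a range of 630.3 to 1851. Trim43a, a tripartite motif gene, had a median of 1041, and its close relative Trim43b one of 908. Reads shared by such near-identical copies do not align uniquely, so the levels of these 2 genes are uncertain. Alppl2, an alkaline phosphatase, had a median of 1051, with 189 in S8, 630.2 in S7 and 779 to 1669.7 in the other kept blastomeres. Spic, an ETS-family transcription factor, had the highest CV of the autosomal genes among the leading 30, 0.4999, with 252 in S15, a median of 1121 and 1899 in S1. Its values in S13, S14, S15, S16 and S21 lay between 252 and 578, below each of the other kept blastomeres.

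Cell cycle and housekeeping genes were also among the leading 30. Ccnb1, the cyclin that drives entry into mitosis, had a median of 1333 and a range of 954 to 1834, and Cdc20, an activator of the anaphase-promoting complex that ranked below the leading 30, a median of 882. Among 40 cell cycle and spindle genes in the table, 5 were among the 100 most abundant. H3f3b, a gene for the replacement histone H3.3, ran from 1024 to 2018 around 1441, and Npm1, a nucleolar histone chaperone, from 904 to 1788 around 1297. Hspa8, the constitutive HSP70 chaperone, had a median of 1208, and Stip1, which links HSP70 to HSP90, one of 1124. Map1lc3b, a component of autophagosomes, had a median of 1305, Cnbp, a nucleic acid binding protein, 1236, Mt1, a metal-binding metallothionein, 1038, and Ftl1, the ferritin light chain, 977. Timd2, a ferritin receptor, had a median of 1041, Eloc, an elongin subunit of ubiquitin ligases, 945, and Timm17a, a channel part of the mitochondrial import machinery, 984.

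The 77 genes for cytoplasmic ribosomal proteins in the table held 6.45% to 11.7% of the summed FPKM, with a median of 7.96%, and 19 of them were among the 100 most abundant genes, which are 0.657% of the 15218 genes of the table. Rplp0, Rps14 and Rps26 had medians of 1131, 999 and 923. Translation factors contributed 7 of their 61 genes to the 100, ubiquitin and SUMO genes 3 of 16, pluripotency factors 3 of 19, histones and histone chaperones 2 of 60, and heat shock chaperones 2 of 27. No gene of the respiratory chain (87 in the table) or of the mitochondrial ribosome (77) was among them. Many ribosomal protein genes have near-identical processed copies in the genome, so their values count only the reads that aligned uniquely.

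Rbx1, Pa2g4 and Kpna2 were the most even genes. Evenness was ranked by the coefficient of variation (CV, the SD of FPKM over its mean) among the 2719 genes above 1 in every kept blastomere, whose median CV was 0.446. The CV fell with the level, from a median of 0.616 over 65 genes with a mean FPKM of 1 to 10 to 0.511 over 1665 genes at 10 to 100, 0.334 over 964 genes at 100 to 1000 and 0.261 over 25 genes above 1000. The 100 most even genes, 3.68% of the 2719, had a CV of at most 0.213, and 29 of them were also among the 100 most abundant. Their median exon length was 1566 bases against 2329 for all 2719 genes, and that of the 200 most uneven genes described below was shorter still, 1374 against 2528 for the 5922 genes they were ranked among.

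**Figure D2:**
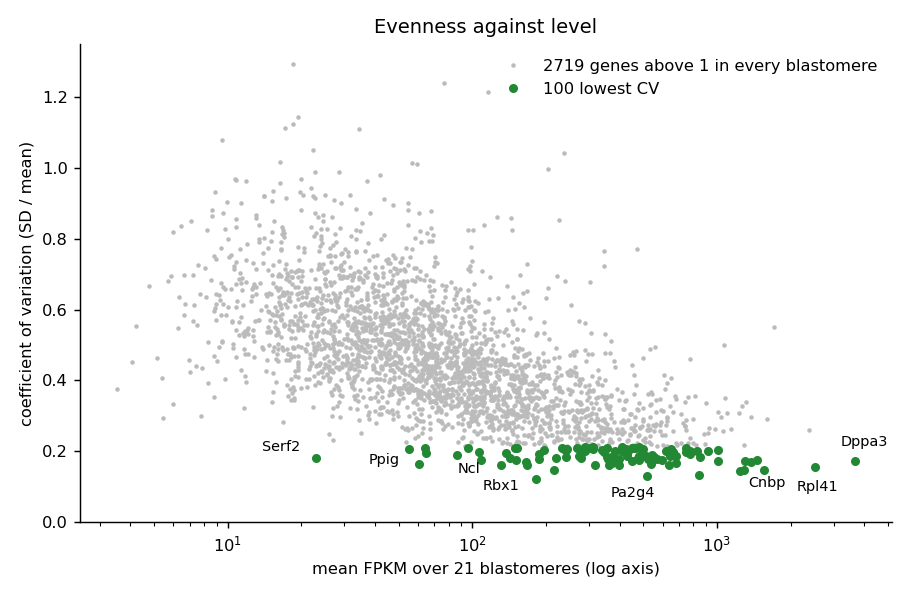
Coefficient of variation over 21 kept blastomeres against mean FPKM on a log axis, 1 point per gene for the 2719 genes above an FPKM of 1 in every blastomere, with the 100 lowest values in green. The CV falls as the level rises, and Rbx1 is lowest at 0.121 although its level is below that of most green genes.

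Rbx1, the RING subunit shared by cullin ubiquitin ligases, was the most even gene. It ran from 142 FPKM to 219 around a median of 186, a spread of 1.55-fold with a CV of 0.121. The fewest fragments of it in any kept blastomere were about 1807. Pa2g4, a growth regulator bound to ribosomes, followed at 353 to 625 with a CV of 0.131, and Kpna2, an importin alpha of nuclear import, at 625 to 1055 with 0.133. Cnbp ran from 856 to 1538 with 0.145, Clns1a, an assembly factor of spliceosomal ribonucleoproteins, from 166 to 261 with 0.147, and Map1lc3b from 797 to 1543 with 0.147. Gcsh and Rpl41, both among the 10 most abundant genes, had a CV of 0.148 and 0.155.

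Several even genes act in ribosome assembly and translation. Brix1, a ribosome assembly factor, had a CV of 0.160, Ncl, nucleolin, likewise 0.160, Rpl7a 0.165 and Npm1 0.172. Eif4a1, the helicase of translation initiation, ran from 478 to 873 with a CV of 0.166, and 6 of the 43 translation factor genes above 1 in every blastomere were among the 100 most even. Of 70 ribosomal protein genes above 1 in every blastomere, 8 were among the 100, and their median CV was 0.267. The highest CV of that list was 0.457, for Rpl12.

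Others act in transcription and RNA processing. Phf5a, a subunit of the SF3b splicing complex, ran from 129 to 213 with a CV of 0.160, Ppig, a cyclophilin that binds splicing proteins, from 43.9 to 81.9 with 0.165, and Polr1d, shared by RNA polymerases I and III, from 120 to 208 with 0.169. The RNA polymerase subunit genes Polr2c, Polr2e, Polr2f, Polr2h, Polr2j and Polr2l were all among the 100. They are 6 of the 12 Polr2 genes above 1 in every blastomere, of 13 in the table. Which of them are also part of other RNA polymerases was not considered. This family was singled out after its values were seen. H3f3a and H3f3b, which encode the same histone, had a CV of 0.160 and 0.176.

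Even genes of other functions included Sugt1, a co-chaperone needed at kinetochores (CV 0.160), Emc4, a part of a membrane insertase of the endoplasmic reticulum (0.162), and Ccdc124, a ribosome-associated protein (0.166). Ccnb1 had a CV of 0.171, Dppa3 of 0.173, and the mitochondrial import genes Timm23, Timm17a and Tomm20 of 0.173, 0.173 and 0.174. Of 14 Timm or Tomm genes above 1 in every blastomere, 4 were among the 100, and the median CV of the 14 was 0.309. Proteasome genes contributed 4 of the 36 measured above 1 in every blastomere, with a list median of 0.297, ubiquitin and SUMO genes 4 of 15 with 0.286, and the respiratory chain 4 of 55 with 0.370.

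Of 26 stress and p53 target genes in the table, 6 exceeded 1 in every blastomere, with a median CV of 0.715, and of 16 trophectoderm and Hippo genes 3 did, with 0.709. For 18 oocyte F-box and leucine-rich maternal genes and for 23 genes of the 2-cell burst of transcription it was 1 gene each, Oog3 with a CV of 0.840 and Tdpoz4 with 0.838. Of 19 pluripotency factors 10 exceeded 1 in every blastomere, with a median CV of 0.375 and Klf5 highest at 0.730. Pou5f1, which encodes OCT4, missed by 1 blastomere in which it was listed at 0, and had a median of 41.5 and a maximum of 87.6. Without S13, S14, S15 and S16 the number of genes above 1 in every blastomere was 2944, and 98 of them were X-linked in place of 6. The 7 lowest CV values were then those of Map1lc3b, Pa2g4, Gcsh, Cnbp, H3f3a, Rbx1 and Kpna2, between 0.0972 and 0.128. The 100 most even of these 2944 genes then held 11 of 74 ribosomal protein genes, 5 of 45 translation factors and 4 of 36 proteasome genes. They also held 3 of 16 ubiquitin and SUMO genes and 3 of 58 respiratory chain genes. Splicing factors went from 3 of 42 to 1 of 44. Each list was counted over its genes above 1 in every blastomere.

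The most uneven genes were in large part X-linked. Unevenness was ranked by the variance of log2(FPKM+1) over the 21 blastomeres minus a lowess trend over the mean, among the 5922 genes with a mean of at least 2. The median of this excess was -0.04 over all 5922 genes, and the 200 highest ran from 3.03 to 16.35. Fxyd4 was just inside at 3.03 and Phyh just outside, also at 3.03. Of the 200 genes, 74 were X-linked, which is 44.8% of the 165 X-linked genes ranked, against 125 or 2.17% of the 5751 autosomal ones. On the single autosomes the share ran from 0.50% on chromosome 14 to 3.77% on chromosome 6.

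**Figure D3:**
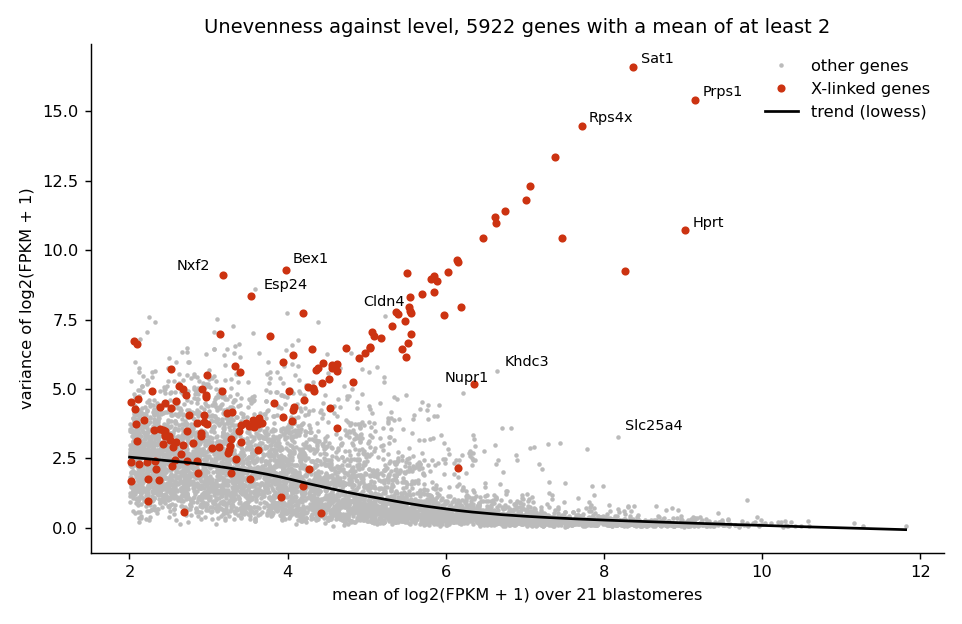
Variance of log2(FPKM + 1) over 21 kept blastomeres against its mean, 1 point per gene for 5922 genes, with X-linked genes in red and the lowess trend as a black line. X-linked genes such as Sat1, Prps1 and Rps4x rise far above the trend, and Khdc3, Nupr1 and Slc25a4 stand out among the other genes at high means.

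The 10 genes with the largest excess above a mean log2(FPKM+1) of 6 were all X-linked. Sat1, which acetylates polyamines (chrX:155213126-155216449 in GRCm38.p6), held 0.35, 0, 0.26 and 0.15 FPKM in S13, S14, S15 and S16, and between 589 and 2037 in the other 17 blastomeres. Prps1 (chrX:140456603-140476140) held 1.32, 1.77, 1.29 and 1.33 in these 4 columns and 1411 to 2907 in the others. For both genes no blastomere lay between these ranges.

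Rps4x, a ribosomal protein gene, was listed at most at 0.17 in the 4 columns and at 471 to 1370.4 elsewhere. Bcap31, a chaperone of the endoplasmic reticulum, reached at most 0.12 against 388 to 814, and Rpl39 at most 0.19 against 176 to 865. Hprt, which salvages purines, was at 1.72, 28.6, 0.10 and 19.9 in S13, S14, S15 and S16 against 1063 to 2154 in the others. Slc25a5, an ADP/ATP carrier of mitochondria, Idh3g, a subunit of isocitrate dehydrogenase, Rpl36a and Cited1, a transcriptional coregulator, completed the 10 with medians of 326, 303, 240.04 and 256 over the 21 blastomeres.

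The 10 genes named from the middle class of means (4 to 6) were X-linked as well. Atp6ap1, an accessory subunit of the proton pump, was listed at 0.03 in S13 and at 0 in S14, S15 and S16, and ran from 37.9 to 386 in the others. Pdha1, the alpha subunit of pyruvate dehydrogenase, held 4.11 in S13, 0.02 in each of S14, S15 and S16, and 54.9 to 373 elsewhere. Pgrmc1, Vbp1, Wdr45, Renbp, Pdzd11, Ssr4, Pin4 and Fmr1nb had medians between 80.3 and 150.3 over the 21 blastomeres and were at most at 0.08 in S13, S14, S15 and S16. In the lowest class (2 to 4) 3 of 10 were X-linked, Bex1, Nxf2, an RNA export factor, and Rgn, regucalcin.

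Over the 165 ranked X-linked genes, 72 were listed at 0 in all of S13, S14, S15 and S16, and 123 were at 1 FPKM or less in all 4. The number above 1 was 27, 19, 16 and 21 in these columns, and 139 to 164 in each of the other kept ones. Only 8 exceeded 10 FPKM in any of the 4. These were Hprt, Rpl10, Dynlt3, Psmd10, Ddx3x, Nxt2, Rlim and Erdr1. Of these, Erdr1 held 11.6, 11.5, 32.4 and 34.3 against a median of 19.5 in the other 17 blastomeres. X-linked here means only that RefSeq places the gene on X. Whether Erdr1 or another of them also has a copy on Y was not examined, so its reads need not come from X. Ddx3x, an RNA helicase gene, held 7.71, 3.13, 15.3 and 37.5 against 106. Rlim, a ubiquitin ligase that acts on X inactivation, held 4.31, 3.45, 0.88 and 15.99 against 20.8. On autosomes the same 4 columns had 6695 to 7874 genes above 1, within the range of 5124 to 7980 of the other kept blastomeres. An FPKM of 1 on 1000 bases stood for 13.4, 16.9, 15.3 and 15.7 fragments in them.

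The repeat table, which was not used for the ranking and has the same column names, showed the same columns. Of its 278683 listed repeat copies, 10283 lie on the X chromosome. Copies on X held 0.169%, 0.165%, 0.171% and 0.235% of the summed repeat signal in S13, S14, S15 and S16 and 2.05% to 3.89% in the other kept columns. Of all copies above 0, the share on X was 1.51%, 2.38%, 2.53% and 2.09% in these 4 columns, and 3.24% to 5.16% in the others.

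**Figure D4:**
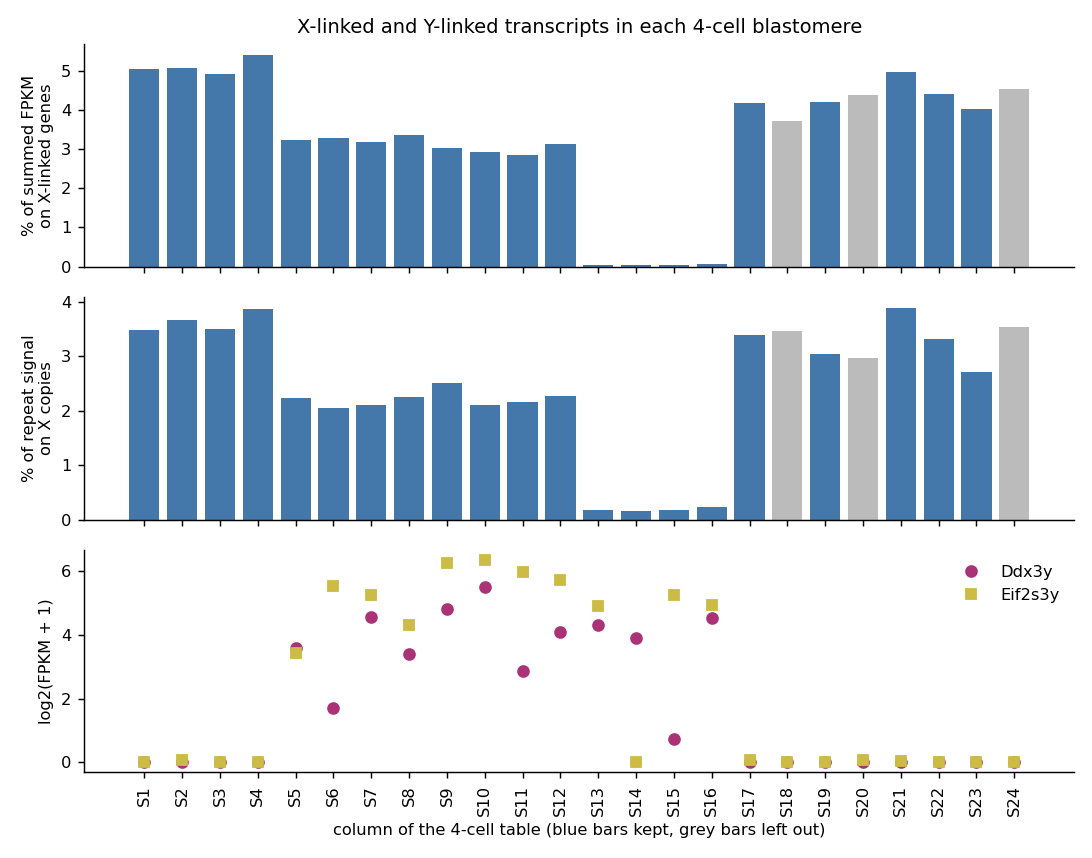
Share of the summed FPKM on X-linked genes (top), share of the summed repeat signal on copies of the X chromosome (middle) and log2(FPKM + 1) of the Y-linked genes Ddx3y and Eif2s3y (bottom) in each of the 24 columns, with kept columns in blue and left-out columns in grey. Both X shares are near 0 in S13, S14, S15 and S16, where at least 1 of the Y-linked genes is above 1 FPKM.

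Ddx3y, a helicase gene, or Eif2s3y, a gene for a translation initiation factor, exceeded 1 FPKM in 12 of the 21 blastomeres, S5 to S16, and in none of the left-out columns. Eif2s3y ran from 9.72 in S5 to 80.9 in S10 over S5 to S12 and was 29.3, 0, 37.4 and 29.5 in S13, S14, S15 and S16. Ddx3y was 18.9, 14.02, 0.68 and 21.99 in the latter 4. In the other 9 kept columns Eif2s3y was at most 0.04 and Ddx3y at most 0.02. The share of FPKM on X was 4.93% to 5.41% in S1 to S4 and 2.84% to 3.35% in S5 to S12. It was 4.17%, 4.21%, 4.96%, 4.42% and 4.01% in S17, S19, S21, S22 and S23. Xist, the RNA that coats the inactive X, was low, with 16.9 FPKM in S19 as the highest value, at most 3.58 in the other kept columns, and 0 in S13, S14, S15 and S16. Since no column was assigned to an embryo, which columns belong together is not stated here, and why X-linked transcripts were nearly absent from 4 of them was not tested.

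Without S13, S14, S15 and S16, a setting chosen after seeing the data, fewer X-linked genes were among the 200. Then 11 of the 188 X-linked genes ranked were among the 200 most uneven of 5907 genes. Of the 23 X-linked genes named above 3 stayed among the 200, namely Bex1, Nxf2 and Rgn. Among the remaining 17 blastomeres Prps1 had a CV of 0.214, Hprt one of 0.224 and Bcap31 one of 0.245. The variance of log2(FPKM+1) of Sat1 fell from 16.59 to 0.31 and that of Rps4x from 14.47 to 0.21.

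Bex1, Nxf2 and Esp24 differed among blastomeres in another way. Bex1 ran from 100.3 to 288 in S1, S2, S3 and S4 and from 62.0 to 183 in S21, S22 and S23, was at most 6.95 in S5 to S9, and was listed at 0 in S7, S8 and in S13, S14, S15 and S16. Nxf2 was listed at 0 in S5, S6, S7 and S8 and in S13, S14, S15 and S16, and reached 116, 254 and 111 in S21, S22 and S23. The autosomal Esp24, an exocrine gland peptide gene on chromosome 17, was listed at 0 in S5, S6, S7, S8, S9, S11 and S17 and reached 216, 116 and 225 in S21, S22 and S23. Over the 17 blastomeres without S13, S14, S15 and S16 these 3 genes fell into 1 group of 6 covarying genes with Fthl17f, Gm9 and 1700013H16Rik.

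Among autosomes, chromosome 12 stood out. For each blastomere the log2 ratio of a gene to its median over the 21 kept cells was taken for genes with a median FPKM above 20, and the median ratio of each chromosome was set against that of all autosomes. Of 399 such autosomal values in the kept blastomeres, 389 lay within 0.20 of 0 and 396 within 0.35. The 3 outside 0.35 were all on chromosome 12, at -0.51 in S21, -0.73 in S23 and 0.39 in S22. Of 120 genes of chromosome 12, 85 were below their median in S21, 90 in S23 and 30 in S22, against 45 to 67 in the other 18 blastomeres. The share of summed FPKM on chromosome 12 was 2.39% in S21, 2.41% in S23 and 4.99% in S22, and 3.49% to 4.21% in the other 18. In the repeat table the share of signal on chromosome 12 was 2.96%, 2.76% and 5.71% in the same columns, against 3.69% to 4.58%. For X-linked genes the same measure was between -6.20 and -5.70 in S13, S14, S15 and S16. Among left-out columns S18 had medians from -1.82 to 1.68 and S20 from -0.62 to 0.60.

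With X- and Y-linked genes set aside after seeing the data, the most uneven genes of high mean were Khdc3, Nupr1, 2700062C07Rik, Nt5c, Slc25a4, Ndufa3, Tbl3, Aqp11, Gemin2 and Tdgf1. Khdc3 (chr9:73101381-73106631), a part of the subcortical maternal complex stored in the egg, was listed at 0 in S21, had a median of 116 and reached 599.6 in S6. It was 508, 85.8, 279.5 and 116 in S1, S2, S3 and S4, between 294 and 599.6 in S5 to S12, and at 11.5 to 53.8 in S13, S14, S15, S16, S17, S19, S22 and S23. Nupr1, a small stress-responsive chromatin protein, was at 349, 931, 850 and 512 in S5, S6, S7 and S8, and at 279 or less in every other kept blastomere, with 0.11 in S19.

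Slc25a4, an ADP/ATP carrier like Slc25a5, ran from 16.2 in S23 to 1099 in S6, with 19.1 in S19 and 35.3 in S21. Tdgf1, which encodes the NODAL co-receptor Cripto, was above 1 in all 21 blastomeres and ran from 15.9 in S14 to 734 in S10. Its values were 18.1, 15.9, 56.1 and 99.2 in S13, S14, S15 and S16. Those of S1 to S12 lay between 267.6 and 734, so the columns low for X-linked genes were low for this autosomal gene too. S17, S19, S21, S22 and S23 held 235, 116, 68.5, 80.2 and 183. The remaining high-mean genes were each at most at 0.08 in 1 blastomere, which was S21 for 4 of them, S19 for Tbl3 and S23 for Gemin2, and had medians of 97.9 to 221 over all. They include Ndufa3 of the respiratory chain, Gemin2, which helps assemble spliceosomal ribonucleoproteins, and Aqp11, an aquaporin.

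At middle means the autosomal genes included Cldn4, a tight junction claudin, and Arl1, a small GTPase of the Golgi. Cldn4 was listed at 0 in S14, S15 and S16, was 8.30 in S13 and 1.61 in S23, and reached 345 in S10. Arl1 was listed at 0 in S17, S19, S21 and S23, and reached 192 in S5. Smpdl3a, Ell3, Ckmt1, Rpp38, H2ac8, Atp6v1h, Etfb and Crip2 followed with medians of 33.5 to 58.3 and were each listed at 0 in 2 to 5 blastomeres. At low means Ly6a, a surface protein, was at 95.4, 104 and 115 in S1, S2 and S3, reached 249 in S7, and was at 0.04 or less in S17, S19, S21, S22 and S23. Lgals9, a galectin, was listed at 0 in the latter 5 columns and in S15 and S16, and reached 141 in S7. Tcp11l2 went the other way. It was listed at 0 in 12 blastomeres, among them S1 to S8, and held 29.1 to 72.5 in S17, S19, S21, S22 and S23. In S13, S14 and S16 it held 23.4, 54.3 and 60.2, and in S9 4.86. Car4, a carbonic anhydrase, was listed at 0 in 9 blastomeres and reached 253 in S6. Cyb5a, cytochrome b5, Fabp3, a fatty acid binding protein, Calm5, Cd24a, a surface glycoprotein, and the small RNA gene Gm12238 were listed at 0 in 4 to 11 blastomeres each and reached 125 to 225.

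The 4 ribosomal protein genes among the 200 were the X-linked Rps4x, Rpl39, Rpl36a and Rpl10. The median excess of the 75 ranked members was -0.038, against -0.036 over all ranked genes. Of 83 ranked respiratory chain genes 4 were among the 200, the X-linked Ndufb11 and Ndufa1 and the autosomal Ndufa5 and Ndufa10. Of 76 mitochondrial ribosomal genes 4 were, Mrps31, Mrpl30, Mrpl36 and Mrpl47. Among 18 ranked pluripotency factors it was Nanog, with 22.6 FPKM as median, 89.0 in S1 and 0.11 or less in S15, S19, S22 and S23. No gene of the heat shock, ubiquitin, cytoskeleton or cell cycle lists was among the 200. Of the translation factors, the X-linked Eif1ax and the Y-linked Eif2s3y were. For comparison, the 200 genes are 3.38% of the 5922 ranked ones. Without S13, S14, S15 and S16 the 200 held no ribosomal protein gene, 7 respiratory chain genes, 4 of the mitochondrial ribosome, 2 pluripotency factors, and 1 gene each of the heat shock and cytoskeleton lists.

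Among the 200 most uneven genes, 150 fell into 3 groups of at least 5 genes that varied together, and the other 50 into no group. Groups were joined by the mean Pearson correlation of log2(FPKM+1) over the 21 blastomeres, down to 0.5. Each point is 1 cell with a library of its own and no assigned embryo, so the correlations describe these cells and carry no p-value. Sister cells of the same embryo can be among them, so the points need not be independent.

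**Figure D5:**
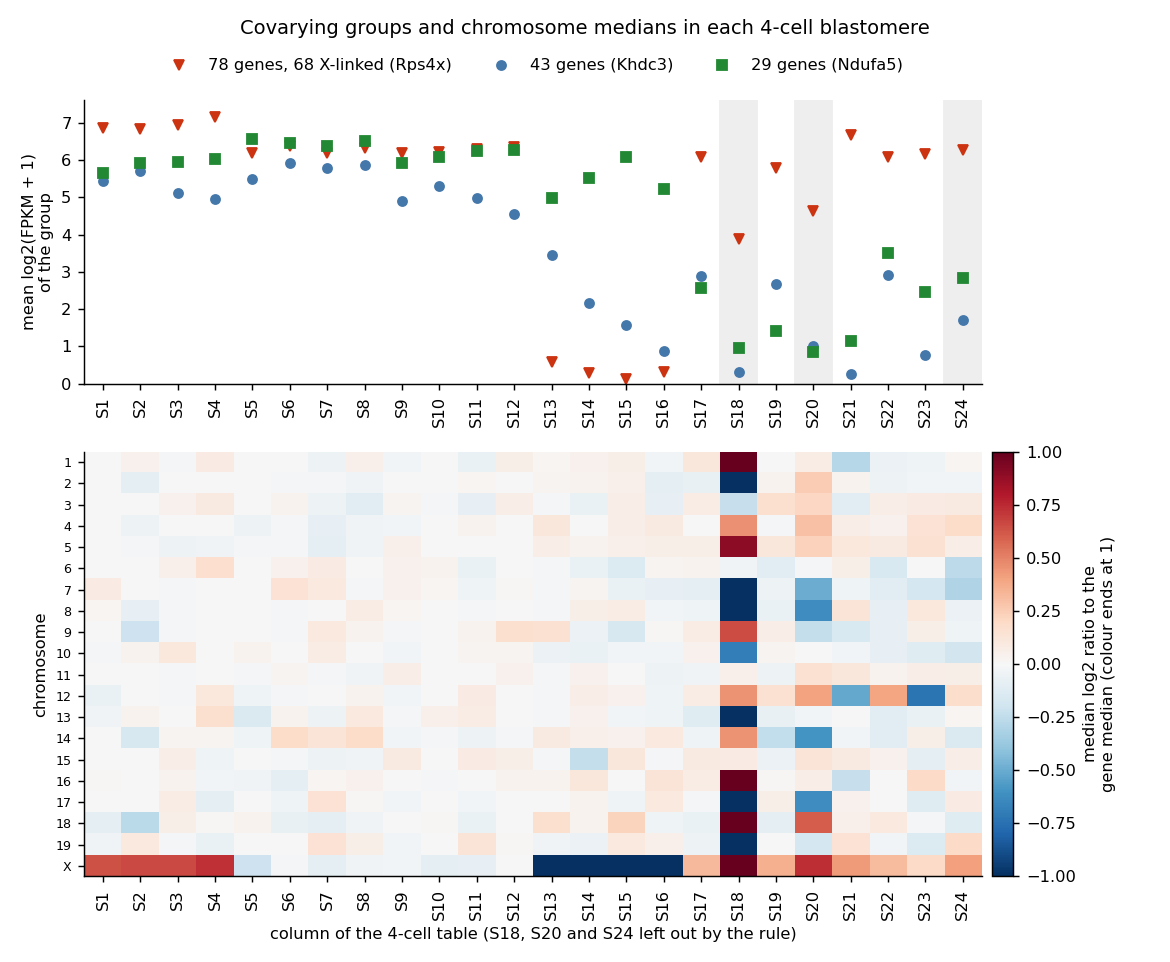
Mean log2(FPKM + 1) of the 3 covarying groups in each of the 24 columns (top, left-out columns shaded) and median log2 ratio of each chromosome's genes to their median over the kept blastomeres (bottom, colours end at 1 and -1). The 78-gene group is low in S13, S14, S15 and S16, the 29-gene group in S17, S19, S21, S22 and S23, and the 43-gene group in both, while chromosome 12 is low in S21 and S23 and high in S22.

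The largest group had 78 genes, 68 of them X-linked. Rps4x, Slc25a5, Rpl36a, Tsr2, Bcap31, Prps1, Idh3g and Timm17b were most typical of it, each with a mean correlation of 0.880 to 0.886 to the other members. The group mean was 0.58, 0.28, 0.14 and 0.31 in S13, S14, S15 and S16 and 5.77 to 7.15 in the other kept blastomeres. It also held 10 autosomal genes, Emc2, Enpp3, Alkbh3, Fabp3, Tnfrsf17, Ell3, Hsh2d, Acer1, Wfdc15a and Pin1rt1.

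A further group, called here by its member Khdc3, had 43 genes, 41 of them autosomal, and its most typical members were Vpreb3, Khdc3, Commd9, Igbp1, Lgals9, Sycn, Rfc4 and Ninj2, with mean correlations of 0.659 to 0.704. Rfc4 is a subunit of the clamp loader of DNA replication, Igbp1 a regulator of protein phosphatases and Sycn a protein of secretory granules. The group also held the tight junction genes Cldn4 and Cldn6. Its mean was 4.55 to 5.93 in S1 to S12. It was 3.45, 2.18, 1.56 and 0.87 in S13, S14, S15 and S16, 2.89 and 2.69 in S17 and S19, and 0.26, 2.92 and 0.77 in S21, S22 and S23. In S21, 40 of the 43 genes were at 1 FPKM or less.

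The smallest group, called by its leading gene Ndufa5, had 29 autosomal genes led by Ndufa5, Psmg2, Nme4, Atp6v1h, Nfu1, Mrps31, 2700062C07Rik and Fam136a, with mean correlations of 0.685 to 0.750. Ndufa5 is a subunit of respiratory complex I, Psmg2 a chaperone of proteasome assembly, Nme4 a mitochondrial nucleoside kinase, Atp6v1h a subunit of the proton pump, Nfu1 a carrier of iron-sulfur clusters and Mrps31 a mitochondrial ribosomal protein. From the lists it held 2 respiratory chain genes, 3 mitochondrial ribosomal genes, the proteasome list's Psmg2 and the DNA replication list's Orc5, where these lists had 83, 76, 44 and 39 of the 5922 ranked genes. Its mean was 4.99 to 6.56 in S1 to S16 and 2.56, 1.41, 1.13, 3.52 and 2.47 in S17, S19, S21, S22 and S23. Psmg2, for example, ran from 29.3 to 130.05 FPKM in S1 to S16, was 64.3 in S22 and at most 2.17 in S17, S19, S21 and S23.

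The 3 left-out columns were not used to form the groups. The mean of the Khdc3 group was 0.32, 1.01 and 1.72 in S18, S20 and S24 and that of the Ndufa5 group 0.94, 0.85 and 2.84, while the X-linked group's was 3.88, 4.63 and 6.27. The number of genes above 1 FPKM was 6944, 6319, 5336, 6840 and 7131 in S17, S19, S21, S22 and S23, 7912, 6995, 6722 and 7179 in S13, S14, S15 and S16, and 6675 to 8276 in S1 to S12. The share of repeat signal on the SINE classes B2 and B3 was 10.9%, 12.2%, 11.5% and 10.6% in S13, S14, S15 and S16, 12.5%, 12.4% and 10.7% in S21, S22 and S23, and 3.73% to 8.80% in the other kept columns. Other repeat classes varied less or were rare. B1 held 7.38% to 9.81% of the repeat signal in the kept columns, L1 elements 1.201% to 2.01%, and MERVL with MT2_Mm, the retrovirus and promoter repeat known from the 2-cell stage, 0.129% to 0.299%. The part of the number of detected genes and of the B2 and B3 share in these groups was not tested.

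The split between the groups of Khdc3 and Ndufa5 depended on which genes and blastomeres entered. Without X- and Y-linked genes the 200 most uneven genes gave groups of 69, 44, 13 and 5 genes. The group of 69 held 25 of the 29 genes of the Ndufa5 group and 9 of the Khdc3 group, and the group of 44 held 31 of the latter. Khdc3 itself fell into the group of 69 with Ndufa5 and Cldn6, while Cldn4 fell into the group of 44. The group of 13 had Mrps2 and Blvrb as its most typical members and also held Nanog and Hesx1, a homeobox gene of pluripotent cells. The mean of this group was 4.19 to 5.66 in S1 to S12, 5.38 in S21 and 0.36 to 2.77 in the other kept blastomeres. Without S13, S14, S15 and S16 a single group of 118 genes held 31 of the 43 and 23 of the 29, with Khdc3 and Ndufa5 among them. Leaving out 1 blastomere at a time, the largest overlap of 1 group fell to as few as 10 of the 43 and 13 of the 29.

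RefSeq promoters (GRCm38.p6, 250 bases before to 50 after the start of a gene) were found for 80 of the 100 most even genes, 166 of the 200 most uneven and 4824 of the 5922 ranked genes. The ratio of observed to expected CpG had a median of 0.894 in the even genes (quartiles 0.790 and 0.964), 0.684 in the uneven genes (0.470 and 0.837) and 0.815 in all ranked genes (0.660 and 0.945). The even genes were drawn from the 2719 above 1 in every blastomere, of which 2209 had a promoter, with a median ratio of 0.842. The motif CCGGAAGT, bound by ETS-family factors and searched on both strands, was in 17.5% of the even promoters, 4.22% of the uneven ones, 11.8% of all ranked ones and 13.4% of the 2209, and in 4.00% of the 27025 promoters of that length in RefSeq. TATAAA at positions -50 to -11 on the gene's strand was in 1.25%, 1.81% and 0.995% of the even, uneven and ranked promoters, or 1, 3 and 48 of them, and in 2.64% of the 27025. The uneven promoters include 70 of the 74 X-linked uneven genes, with a median CpG ratio of 0.710, CCGGAAGT in 2.86% and no TATAAA. Promoters were found for 95 of the 125 uneven autosomal genes, under 80%, so that a check over these is void. Without S13, S14, S15 and S16 the 162 promoters of the 200 uneven genes had a median ratio of 0.662, CCGGAAGT in 4.94% and TATAAA in 2.47%, and 78 of the 100 even genes had a promoter, again under 80%. No difference was tested, and a match is a run of letters, not a binding site.

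To show the motifs in their setting, 30 bases from the promoters of 5 even genes are shown 5′ to 3′ on the gene's strand with the ETS motif or its reverse complement in capitals, followed by the 3 uneven genes with TATAAA, in capitals. Rpl41 lies at chr10:128549206-128549235, Timm23 at chr14:32201921-32201950, Nhp2 at chr11:51619739-51619768, Polr2f at chr15:79141295-79141324 and Polr2j at chr5:136116661-136116690. Gadd45b lies at chr10:80930033-80930062, Snhg5 at chr9:88522903-88522932 and H4c4 at chr13:23581524-23581553. Rpl41, Timm23 and Snhg5 are read from the minus strand and the others from the plus strand.
Rpl41: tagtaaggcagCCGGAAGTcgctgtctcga
Timm23: tcgcgcttcccACTTCCGGgccgcacacag
Nhp2: cacttgaaaacCCGGAAGTgatgtcggagg
Polr2f: cggccgctgcttcCCGGAAGTaactgcgcc
Polr2j: ggctgagaaatCCGGAAGTggtcgcgcttc
Gadd45b: cccgggaagtcaTATAAAccgctcgcagcg
Snhg5: cacaaaggagacTATAAAaggagctgcggt
H4c4: ccgcattggtatTATAAAagccaggaaggc
The 5 even genes had a CV of 0.155 to 0.1997, among them Nhp2, a protein of small nucleolar ribonucleoproteins. Gadd45b, a stress-induced gene, Snhg5, a host gene of small nucleolar RNAs, and H4c4, a histone gene, were among the 200 most uneven.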

How the data were processed

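Each library was made from 1 blastomere with the Smart-seq2 protocol. The authors aligned reads to mm10 with STAR 2.5.1b, kept unique alignments, counted them with HTSeq on RefSeq genes and RepeatMasker copies and deposited an FPKM table and a repeat signal table for 4-cell blastomeres. The gene lengths and totals behind the FPKM values and the unit of the repeat signal are not given in the sources used here, so repeats are given as shares and numbers of copies above 0. The 8-cell tables were not used. The library does not mark strand, so overlapping antisense genes cannot be told apart.

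Identifiers of 15200 of 15218 genes were matched to RefSeq (GRCm38.p6, the assembly of mm10). The fragments behind each column were estimated from 8467 genes with 1 curated transcript, whose low values (0.5 to 10 fragments) were within 0.1 of a whole fragment in at least 90.4% of cases. PCR copies are included. Variance and correlation used log2(FPKM+1), with a pseudocount of 1, a lowess span of 0.3, and average linkage (Python 3.11.15, scipy 1.17.1, statsmodels 0.14.6). The computations were also run on simulated independent cells with large planted differences. Such a run checks the computing and cannot show how settled the groups found here are. An FPKM listed at 0 can be a missed transcript.

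Named genes are the 30 highest by median FPKM, the 25 lowest by CV, the 10 highest by excess variance in each of 3 classes of mean, up to 8 per covarying group, and examples of lists. Of the abundant genes, 1 is not reported here. Genes, lists and settings were chosen with earlier results of these data known.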

Additional observations from a re-analysis of the deposited data

How the results depend on the processing

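The columns carry no sample, embryo or replicate number. No paired analysis was possible because of this, as far as the column names go. The paper lists its 4-cell blastomeres by embryo, 24 of them with a resolved lineage, and the gene table has 24 columns. Whether the columns follow the paper's order of embryos was not tested. The rankings and covarying groups can therefore reflect differences between embryos as well as between cells. Leaving out 1 blastomere at a time kept 97 to 99 of the 100 most abundant, 85 to 95 of the 100 most even and 174 to 193 of the 200 most uneven genes, with 67 to 76 X-linked among the latter, and left 2723 to 2993 genes above 1 in every blastomere. The covarying groups were less settled. They numbered 3 to 6 and held 143 to 165 genes, and the largest overlap of 1 group was 60 to 78 with the X-linked group, 10 to 43 with the Khdc3 group of 43 and 13 to 29 with the Ndufa5 group of 29. The overlap with the Khdc3 group was 18, 25, 27, 18, 28, 27, 16, 25 and 10 without S2, S3, S5, S6, S7, S15, S16, S21 and S23. That with the Ndufa5 group was 13, 19, 17, 14, 14 and 15 without S9, S14, S17, S19, S21 and S23.

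With all 24 columns, 60 of the 100 most even genes were shared, 1351 genes exceeded 1 in every column, and the Khdc3 overlap was 25. With a higher minimum of genes per column, which leaves out S21, there were 5 groups and overlaps of 25 and 14 with the Khdc3 and Ndufa5 groups. Rescaling to equal sums gave 6 groups and a Khdc3 overlap of 17. Without S21 and S23, chosen after seeing the data, there were 6 groups with overlaps of 14 and 7. Spearman's correlation gave 5 groups and an Ndufa5 overlap of 13, and a mean correlation of 0.6 gave 8 groups with overlaps of 18 and 18. With 100 uneven genes, 85 were in a group, the overlaps were 14 and 6, and TATAAA was in 1.19% of the promoters. With 400 there were 11 groups of 304 genes and a Khdc3 overlap of 23.

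Of the 200 most uneven genes, 124 were shared at a minimum mean of 4, 118 with the log ratio to the trend, and 41, with 16 X-linked, when the squared median absolute deviation replaced the variance. Without S13, S14, S15 and S16, 112 were shared, 11 were X-linked and the overlap with the X-linked group was 8. Without X- and Y-linked genes 125 were shared, 0 were X-linked by construction and that overlap was 4. The chromosome 12 and X medians kept their sign with genes above a median FPKM of 5 or 50. The 30 named abundant genes stayed among the 100 in every setting run, and the 25 named even genes did except for 2 with all 24 columns. The named uneven genes left the 200 in 22 cases with the median absolute deviation and in 2 with the log ratio. Without S13, S14, S15 and S16, 20 of the 30 left the 200 and 1 was not ranked. Others were not ranked at all, 10 of 30 at a minimum mean of 4, 4 with a pseudocount of 0.1, 1 without S21 and S23, and 24 without X- and Y-linked genes. Apart from construction the cause of these changes was not tested. Depth limits the low genes, since at an FPKM of 1 a short transcript rests on few fragments.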
